A study of Mus musculus with 12 samples.

Results

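The Hox genes are 39 protein-coding genes in 4 clusters of the mouse genome, Hoxa on chromosome 6, Hoxb on chromosome 11, Hoxc on chromosome 15 and Hoxd on chromosome 2. They were taken from 21887 protein-coding genes of the RefSeq table for GRCm38.p6 by their symbols (Hoxa, Hoxb, Hoxc or Hoxd followed by digits). Their chromatin was examined in 2 peak lists of ChIP-seq, the sequencing of DNA that an antibody brings down with its bound proteins. The antibody was pan-Kcr, raised against lysine that carries a crotonyl group, on whichever protein that lysine sits. Both libraries came from dorsal hippocampus of C57BL/6J mice, fixed in formaldehyde. The learning library was made from mice trained in spatial object recognition, a test of memory for the places of objects, and the homecage library from mice that stayed in their home cage. The labels of these 2 libraries name no crotonate or saline treatment, no age and no number of animals. With a single pan-Kcr library for each condition there is no replicate check, and no p-value is given.

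Hox genes encode homeodomain transcription factors that give cells along the head-to-tail axis of the embryo their regional identity. Genes of the same number in different clusters are paralogs, and their order along a cluster follows the order of the body regions in which they act. Paralog groups 1 to 3 are called anterior here, 4 to 8 central and 9 to 13 posterior. In the nervous system, Hox genes pattern the hindbrain and spinal cord, while the forebrain, of which the hippocampus is part, develops without them. Where they are silent, Hox clusters are a textbook target of Polycomb complexes. Crotonylation of histone lysines is an acylation found mostly at active promoters and enhancers.

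Each list gives the position and width of a peak but no strength and no read number, so the depth behind the lists is unknown. On chromosomes 1 to 19, X and Y there were 16002 learning peaks and 331236 homecage peaks, 20.7 times as many. That difference stands beside every comparison of the lists below, and its part in them was not tested. Counts are therefore read against the share of all protein-coding genes with a peak in the same list. Intervals are exact 95% intervals (Clopper-Pearson for shares, Poisson for densities). They cover counting error only, and neighbouring Hox genes are not independent, so they are too narrow.

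None of the 39 Hox genes had a learning peak in the gene or within 1 kb of it (0%, 95% interval 0 to 9.03%), compared with 26.9% of all protein-coding genes. The homecage list had a peak at 16 of the 39 (41%, 25.6 to 57.9%), compared with 81.7% of all protein-coding genes. The remaining 23 Hox genes had a peak in neither list. Within 1 kb of either gene end, the learning list had a peak at 0 Hox genes, against 15.6% of all protein-coding genes, and the homecage list at 11 (28.2%, 15.0 to 44.9%), against 60.9%. In both lists and by both measures, the share of Hox genes was below that of all protein-coding genes, and the latter lay above the counting interval.

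Hox genes are short, and a longer gene has more room for a peak. Their median length was 3737 bp, from 1784 bp for Hoxc12 to 44009 bp for Hoxa3, against a median of 17169 bp over all protein-coding genes. Among the 14013 protein-coding genes within that range of lengths, 21.2% had a learning peak and 82.6% a homecage peak in the gene or within 1 kb, and 15.3% and 61.7% had one at a gene end. In the band up to 4000 bp, 0 of 21 Hox genes had a learning peak, against 7.64% of all genes of that length, and 7 had a homecage peak (33.3%, 14.6 to 57.0%), against 48.9%. Over 4000 and up to 10000 bp, the learning count was 0 of 12 against 16.7%, and the homecage count was 5 (41.7%, 15.2 to 72.3%) against 75.2%. Of the 6 Hox genes longer than 10000 bp, 0 had a learning peak, against 25% of genes of that length up to the longest Hox gene. The homecage count in this band was 4 (66.7%, 22.3 to 95.7%) against 91.2%. At the shares of their own length bands, 5.11 of the 39 Hox genes would have a learning peak and 24.8 a homecage peak. The observed 0 and 16 were lower in each band, but within a band the genes are few, and only the homecage share of the middle band left the background above its interval.

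**Figure D1:**
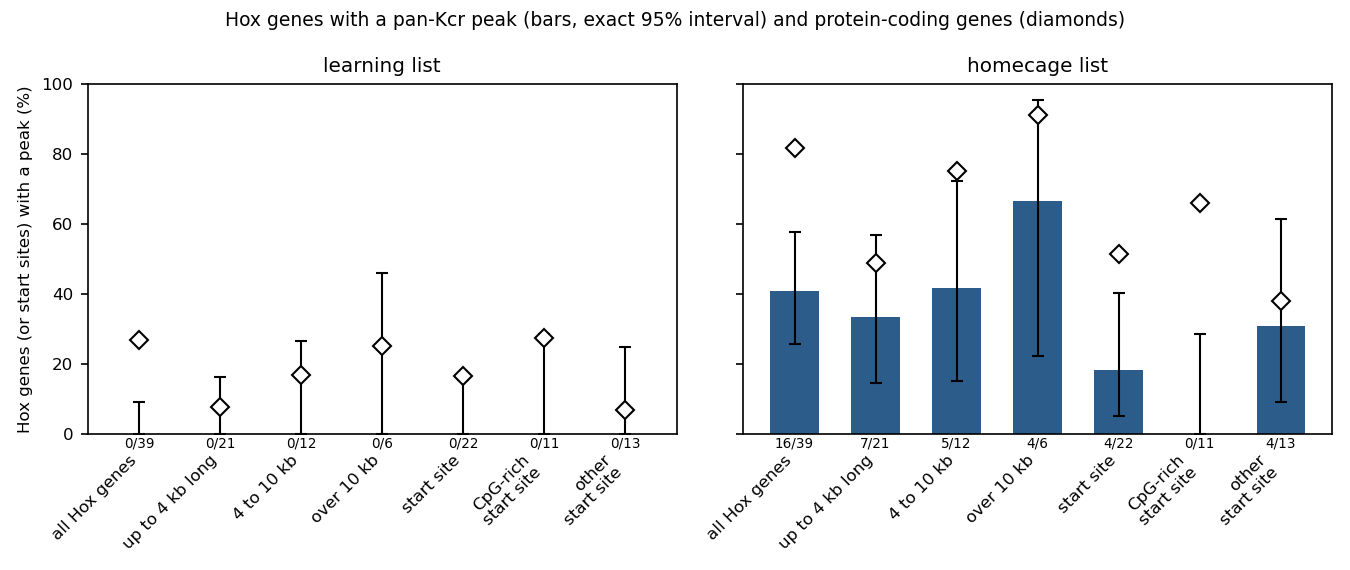
Share of Hox genes with a peak in the gene or within 1 kb, for all 39 genes and by gene length, and share of start sites with a peak within 1 kb, in the learning (left) and homecage (right) list. Bars are Hox genes with exact 95% intervals, numbers below give the genes (for the CpG classes, start sites) with a peak over those counted, and diamonds give the same share over protein-coding genes of that class. All learning bars are at 0, and all homecage bars lie below their diamonds.

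The 16 genes with a homecage peak came from all 4 clusters. There were 3 of 11 Hoxa genes (85.6% of all protein-coding genes of chromosome 6), 4 of 10 Hoxb genes (84.8% on chromosome 11), 6 of 9 Hoxc genes (88.5% on chromosome 15) and 3 of 9 Hoxd genes (81.3% on chromosome 2). The learning count was 0 in each cluster, where 26.6%, 30.8%, 32% and 25.4% of the protein-coding genes on chromosomes 6, 11, 15 and 2 had a peak. Each cluster was thus below its own chromosome in both lists. In the learning list, the intervals of Hoxa, Hoxb, Hoxc and Hoxd reach 28.5%, 30.8%, 33.6% and 33.6%. They take in the chromosome share, so the learning counts do not set a single cluster apart. In the homecage list Hoxc was nearest to its chromosome, and its interval (29.9 to 92.5%) was the only one to hold the chromosome share for homecage peaks. By place along the body axis, 4 of 8 anterior, 6 of 15 central and 6 of 16 posterior genes had one (50%, 40% and 37.5%, with intervals of 15.7 to 84.3%, 16.3 to 67.7% and 15.2 to 64.6%). The intervals overlap widely, and the tiers were not told apart by this count. At gene ends the counts were 1 of 8, 4 of 15 and 6 of 16, against 60.9% of all protein-coding genes. Their intervals, 0.316 to 52.7%, 7.79 to 55.1% and 15.2 to 64.6%, overlap widely too. Paralog groups 5 and 9, with 3 and 4 genes, had no homecage peak in any cluster, and group 12 had one at both of its genes, Hoxc12 and Hoxd12. Each paralog group holds few genes, and whether groups differ was not tested.

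Among the anterior genes, Hoxa2, which patterns the hindbrain, had 1 homecage peak inside the gene. It was 412 bp wide (chr6:52164226-52164637) and ended 194 bp from the Hoxa2 start site. Hoxb3, another hindbrain gene, had 4 homecage peaks in its 40830 bp span, the most of any Hox gene, the widest of 618 bp (chr11:96312181-96312798). Its paralog Hoxd3, which shapes the neck vertebrae, had 1 of 147 bp (chr2:74744449-74744595), the smallest width in the homecage list, in a span of 36279 bp. Hoxa3, the longest Hox gene, had none. Hoxb1, which specifies facial motor neurons, Hoxb2 and Hoxd1 also had none in the gene or within 1 kb.

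In the central tier, Hoxc6, a gene of brachial motor neurons, had the widest homecage peak at any Hox gene, 754 bp inside the gene (chr15:103005482-103006235), and a second of 467 bp (chr15:103002260-103002726). Hoxc4 had a peak of 559 bp across one of its ends (chr15:103036751-103037309) and one of 221 bp inside. Hoxb4, a gene known from blood stem cells, had a peak of 250 bp (chr11:96322083-96322332) that lies 445 bp outside it and also inside Hoxb3, so it counts for both genes. Hoxb8, whose loss in mice causes compulsive grooming, had 1 of 379 bp inside the gene (chr11:96280677-96281055). Hoxa7, which acts in the thoracic region, had a peak of 298 bp (chr6:52218697-52218994) at 124 bp outside the gene, and Hoxc8, another thoracic gene, 1 of 431 bp at 648 bp. The other 9 central genes had no peak in either list. They are Hoxa4, Hoxa5, Hoxa6, Hoxb5, Hoxb6, Hoxb7, Hoxc5, Hoxd4 and Hoxd8.

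In the posterior tier, Hoxd11, a gene of the forearm skeleton, had the widest homecage peak of the Hoxd cluster, 490 bp ending at the upstream start site of the gene (chr2:74679069-74679558). Hoxd12, a digit gene next to it, had 1 of 163 bp inside the gene (chr2:74677292-74677454). Hoxc10, a gene of the lumbar spinal cord and hindlimb, had a peak of 459 bp inside and one of 390 bp at a distance of 695 bp. Hoxc12 had 1 of 369 bp at 494 bp outside the gene, and Hoxc13, which is required for hair and nails, 1 of 194 bp inside. Hoxb13, known from the prostate and the tail, had 1 of 225 bp at 396 bp outside the gene. Without a peak in either list were Hoxa9, Hoxa10, Hoxa11, Hoxa13, Hoxb9, Hoxc9, Hoxc11, Hoxd9, Hoxd10 and Hoxd13, which include the paralogs of group 9 and the genes of the digits and uterus, Hoxa13, Hoxd13, Hoxa10 and Hoxa11.

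**Figure D2:**
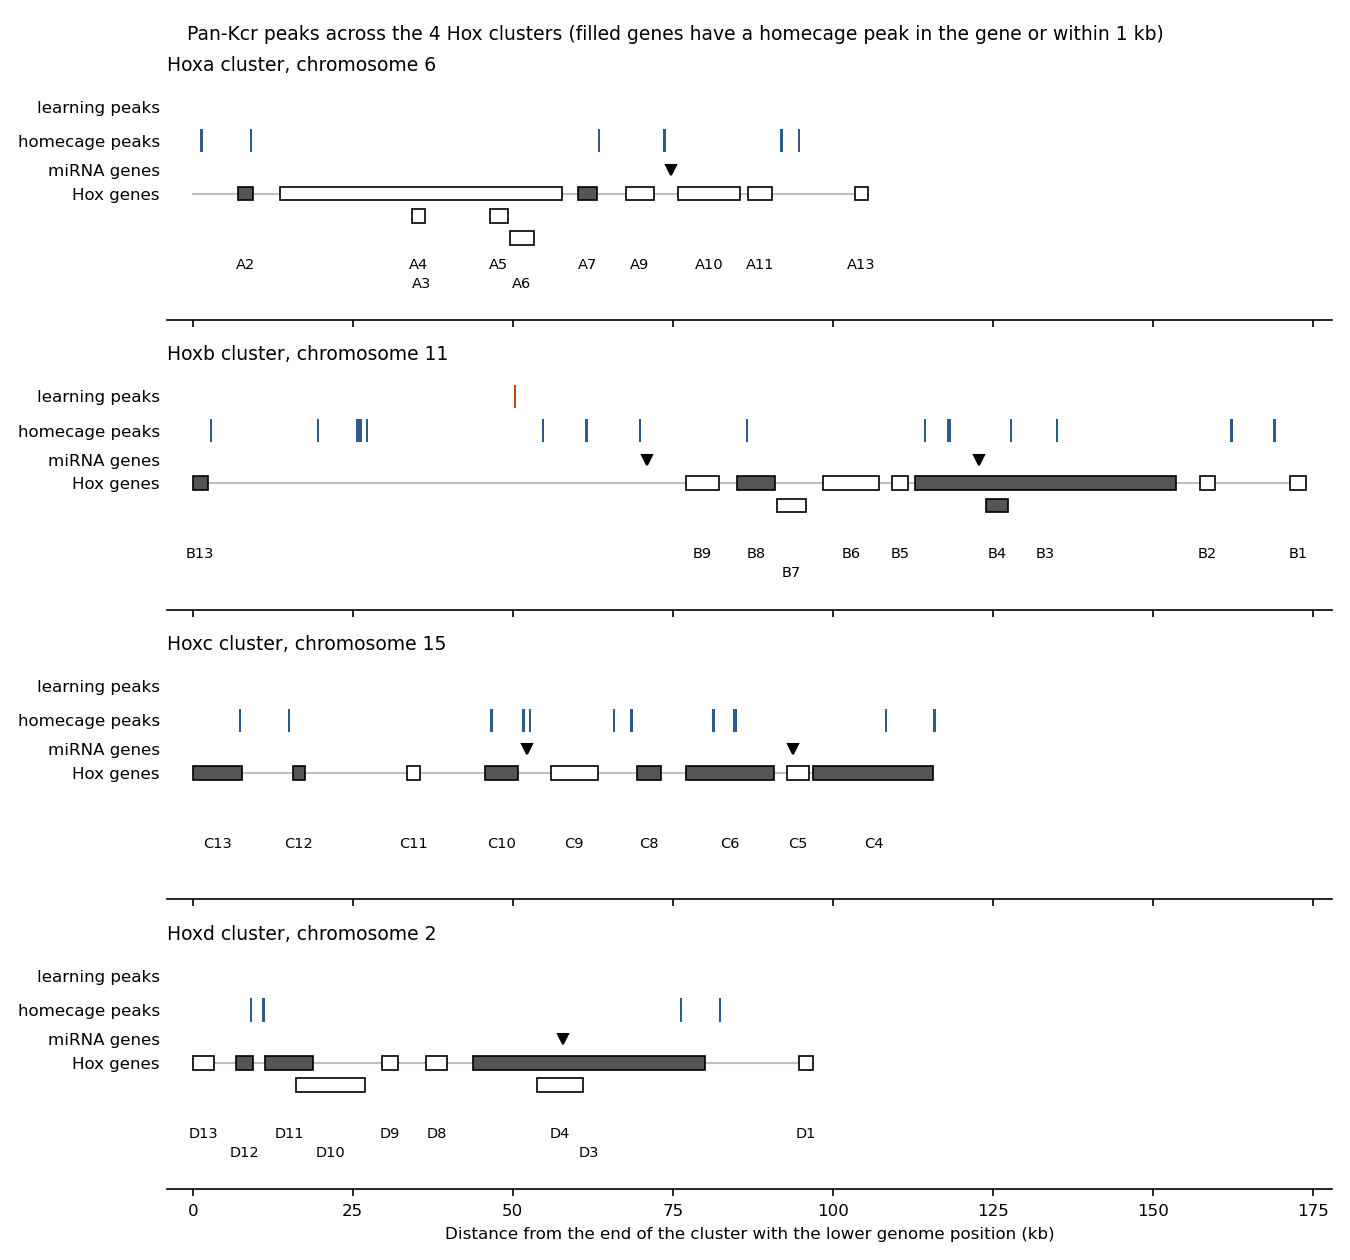
The 4 Hox clusters drawn to scale, in kb from the end with the lower genome position. Boxes are the Hox genes named in the text, with the letter and number of their symbol below, in extra rows where they overlap or nearly touch, filled where the gene had a homecage peak in it or within 1 kb; triangles are miRNA genes, and bars are homecage (blue) and learning (red) peaks, drawn at least 0.35 kb wide. The single learning peak lies between Hoxb13 and Hoxb9, and wide stretches of Hoxa and Hoxd hold no peak.

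Across the clusters, from the first to the last Hox gene, the homecage list held 35 peaks in 492 kb, 7.11 per 100 kb (95% interval 4.95 to 9.89). At the density of the whole homecage list, 12.4 per 100 kb, 61.2 peaks would lie there. The 500 kb on each side of the clusters held 12.6 per 100 kb (11.5 to 13.8), near the whole-list value and 1.78 times the density inside. Homecage peaks covered 2.54% of the cluster bases, against 5.01% of the span of all chromosomes. Of the 35 peaks, 16 lay inside or across a Hox gene, 5 within 1 kb of one and 14 farther away. Their widths ran from 147 to 833 bp with a median of 370 bp, compared with 351 bp over the list, the widest lay between Hoxb13 and Hoxb9 (chr11:96219872-96220704), and 6 of them (17.1%) reached 500 bp, compared with 24.8% of the list.

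Each cluster had a lower homecage density than its own flanks. The Hoxd cluster held 4 peaks, 4.13 per 100 kb (1.12 to 10.6), against 12.3 (10.2 to 14.7) in its flanks. The Hoxa cluster held 6 peaks, 5.69 per 100 kb (2.09 to 12.4), against 11.1 (9.13 to 13.4). In Hoxb there were 14 peaks, 8.05 per 100 kb (4.40 to 13.5), against 13.9 (11.7 to 16.4), and in Hoxc 11 peaks, 9.51 per 100 kb (4.74 to 17.0), against 13.2 (11.0 to 15.7). The intervals of cluster and flanks overlap in each of the 4, narrowly for Hoxd, and the intervals of the 4 clusters overlap one another. With the Hoxb cluster counted from Hoxb9 to Hoxb1, without Hoxb13 and the stretch beside it, its homecage density was 7.22.

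The clusters held long stretches without a homecage peak. The longest stretch without one was 64.9 kb in Hoxd (chr2:74679559-74744448), which holds all of Hoxd10, Hoxd9, Hoxd8 and Hoxd4, followed by 54.1 kb in Hoxa (chr6:52164638-52218696), which holds Hoxa3 to Hoxa7. Of the 331215 gaps between neighbouring homecage peaks, 0.255% were at least as long as the Hoxd stretch and 0.319% as long as the Hoxa stretch. Such gaps make up 9.62% and 10.1% of the span of the chromosomes. These shares refer to the whole list, which is denser than the clusters. Whether peaks are unevenly spread inside a cluster was not tested. In Hoxc the longest stretch was 31.3 kb and in Hoxb 27.6 kb. For the learning list a stretch of cluster size without a peak is usual. Hoxa, Hoxc and Hoxd held no learning peak over their whole length and Hoxb none over 123 kb. Gaps at least as long made up 37.4% to 43.3% of all gaps between learning peaks and 85.5% to 89.4% of the span of the chromosomes. These learning stretches were cut at the cluster ends, though. The whole gaps run on to learning peaks 39.1 to 466 kb outside the clusters, and their full lengths were not set against the list.

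**Figure D3:**
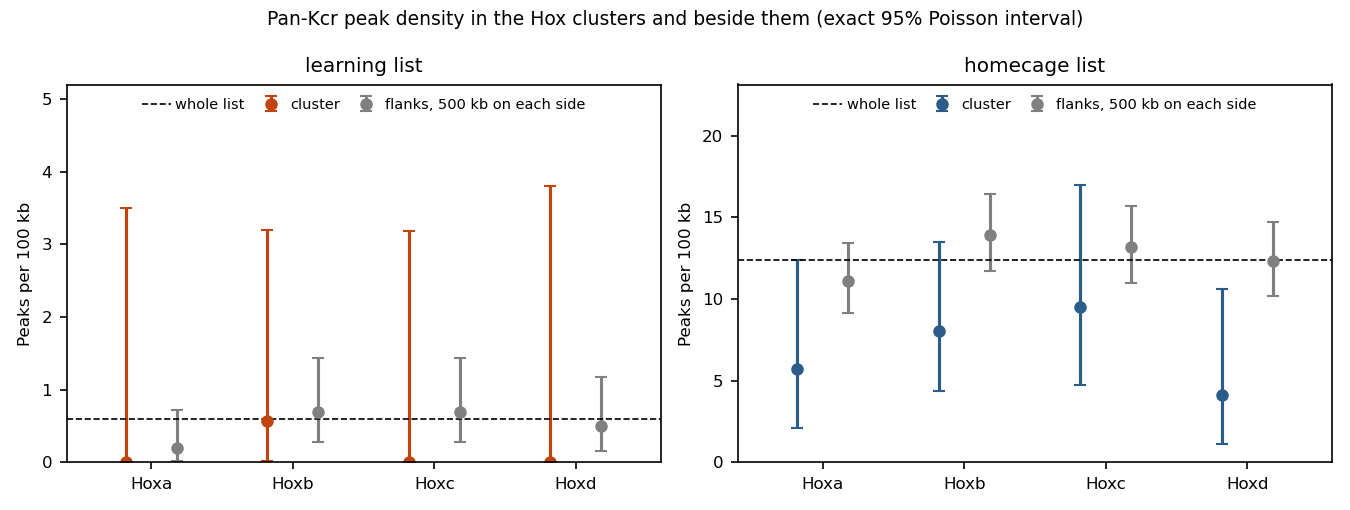
Peaks per 100 kb in each Hox cluster (coloured points) and in the 500 kb on each side of it (grey points), with exact 95% Poisson intervals, in the learning (left) and homecage (right) list; the dashed line is the density over the whole list. The homecage density inside each cluster, 4.13 to 9.51, lies below that of its flanks, 11.1 to 13.9, and 3 clusters are at 0 in the learning list.

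The learning list held 1 peak in the 4 clusters, 298 bp wide (chr11:96244517-96244814), in the stretch of the Hoxb cluster between Hoxb13 and Hoxb9. It lay 26.5 kb from Hoxb9, the nearest Hox gene, and 4001 bp from the nearest homecage peak. At the density of the whole learning list, 0.601 per 100 kb, 2.96 peaks would lie in the clusters, so this count alone says little about the clusters (0.203 per 100 kb, 95% interval 0.00514 to 1.13). The flanks held 21 learning peaks, 0.525 per 100 kb (0.325 to 0.803). Over the 39 Hox genes, the distance to the nearest learning peak ran from 26.5 to 381 kb with a median of 174 kb, against a median of 31.2 kb over all protein-coding genes. Most Hox genes of a cluster share the same nearest learning peak, so these distances are not independent. Of all protein-coding genes, 52.6% lay at least 26.5 kb from a learning peak. The nearest homecage peak lay 0 to 25.1 kb from a Hox gene, with a median of 1.85 kb, against a median of 0 kb over all protein-coding genes.

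Outside the clusters, the nearest learning peaks lay inside another gene at 6 of 8 sides. No share over all learning peaks stands beside this count, so it does not set these peaks apart. On either side of Hoxa the nearest learning peaks were in Skap2, 294 kb away (345 bp wide, chr6:51860798-51861142), and in Hibadh, 379 kb away (223 bp, chr6:52640057-52640279). Those of Hoxb were in Calcoco2, 94.1 kb away (195 bp, chr11:96100019-96100213), and in Skap1, 258 kb away (391 bp, chr11:96626699-96627089). Below Hoxc the nearest was 174 kb away, 24706 bp from Calcoco1 (652 bp, chr15:102746884-102747535), and above it 466 kb away in Pde1b (286 bp, chr15:103503178-103503463). Hoxd had the closest ones, 39.1 kb away and 23832 bp from Evx2 (201 bp, chr2:74628957-74629157) and 60.7 kb away in Mtx2 (338 bp, chr2:74825853-74826190). Of the 9 genes beside the clusters, 4 had a learning and 8 a homecage peak in the gene or within 1 kb (26.9% and 81.7% of all protein-coding genes). The 4 with a learning peak, Mtx2, Hibadh, Skap2 and Skap1, are 50937 to 295053 bp long, longer than any Hox gene, and 0 of the 4 neighbours in the Hox length range had one. Evx1 and Evx2, homeobox genes beside the Hoxa and Hoxd clusters, had no learning peak, and 0 and 1 homecage peaks.

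Start sites could be placed for 22 of the 39 Hox genes, which matched the RefSeq promoter table of GRCm38.p6 with 24 start sites. These are 9 of 11 Hoxa and 9 of 9 Hoxd genes but 3 of 10 Hoxb and 1 of 9 Hoxc genes, so the values mostly describe Hoxa and Hoxd, not Hoxc, where homecage peaks were most frequent. None had a learning peak within 1 kb, against 16.4% of the 17492 protein-coding genes in that table, and 4 had a homecage peak there (18.2%, 5.19 to 40.3%), against 51.5%. These 4 were Hoxd11, Hoxa7, Hoxa2 and Hoxb8, at 0, 124, 194 and 850 bp from the start site. Homecage peaks overlapped the 250 bases before a start only at Hoxd11 and Hoxa7. Hoxd11 has a further start site (chr2:74682323), and its nearest homecage peak lies 2765 bp away. The stretches of Hoxd11 and Hoxa7 are shown because no other placed Hox start site has a peak in these 250 bases. They are printed 5′ to 3′ on the strand of the gene, capitals mark bases under the homecage peak, and the Hoxd11 stretch (chr2:74679308-74679557, plus strand) lies wholly under it, while 127 bases of the Hoxa7 stretch (chr6:52218574-52218823, minus strand) do.
Hoxd11: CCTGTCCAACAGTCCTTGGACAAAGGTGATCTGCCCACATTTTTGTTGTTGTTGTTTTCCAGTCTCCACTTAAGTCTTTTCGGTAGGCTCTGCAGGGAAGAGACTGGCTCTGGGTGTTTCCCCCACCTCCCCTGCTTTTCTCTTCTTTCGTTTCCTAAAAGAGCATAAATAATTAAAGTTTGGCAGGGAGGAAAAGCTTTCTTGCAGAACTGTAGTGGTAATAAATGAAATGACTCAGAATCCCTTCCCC
Hoxa7: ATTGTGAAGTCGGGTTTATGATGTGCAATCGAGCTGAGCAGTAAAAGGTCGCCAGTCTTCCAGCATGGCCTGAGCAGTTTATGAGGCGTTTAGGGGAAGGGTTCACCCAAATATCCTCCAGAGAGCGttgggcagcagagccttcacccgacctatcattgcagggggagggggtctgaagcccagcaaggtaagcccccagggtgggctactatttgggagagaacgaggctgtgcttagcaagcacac

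Both stretches are poor in CpG dinucleotides, with 2 in the Hoxd11 and 7 in the Hoxa7 stretch. The homeodomain core motif TAAT, searched on both strands, occurred 3 times in the Hoxd11 stretch and 0 times in the Hoxa7 stretch. Over all Hox start sites, 18 of 24 had TAAT in the 250 bases before the start (75%), against 49.4% of 21263 start sites of protein-coding genes. TGATNNAT, a motif bound by Hox proteins together with Pbx, occurred at 4 of 24 (16.7%) against 6.68%. No interval was computed for the motif shares, and their difference from all start sites was not tested.

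CpG-rich promoters are a usual place of active histone marks, and in both lists they carried peaks more often than other promoters. A start site was called CpG-rich where the 300 bases around it had a CpG observed/expected ratio of at least 0.6 and a GC content of at least 50%. This held for 11 of 24 Hox start sites (45.8%) and 45.1% of all start sites. The 11 include the further start site of Hoxd11, with a ratio of 0.875 and a GC content of 62%. None of the 11 CpG-rich Hox start sites had a peak within 1 kb in either list (0%, 0 to 28.5%), against 27.4% (learning) and 66% (homecage) of the CpG-rich start sites of protein-coding genes. Their nearest homecage peaks lay 1287 bp (Hoxa11) to 32435 bp (Hoxd3) away, with a median of 6934 bp. Of the 13 other Hox start sites, 0 had a learning peak, against 6.86%, and 4 had a homecage peak (30.8%, 9.09 to 61.4%), against 38%. In the homecage list the interval of the CpG-rich Hox start sites lay below their background, and that of the others did not; the difference between the classes was not tested. The CpG class goes with the cluster. All 11 CpG-rich start sites lie in Hoxa (6) and Hoxd (5), the clusters with the lowest homecage density, and 6 of the 11 lie in the long stretches without a homecage peak described above. Within these 2 clusters, 0 of 11 CpG-rich and 3 of 9 other start sites had a homecage peak within 1 kb. Hoxb8, one of the 4 genes with a homecage peak at the start site, has a CpG ratio of 0.97 but a GC content of 42.3%, so it is not in the CpG-rich class, and without the GC limit the count is 1 of 12 (65.1% of all such start sites). With a ratio limit of 0.55, which admits Hoxa10 at 0.596 and Hoxb4 at 0.593 among others, it is 0 of 15 (65.4%). Hoxa2, another of the 4, has a ratio of 0.589 and a GC content of 45.7%, so neither change alone admits it.

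**Figure D4:**
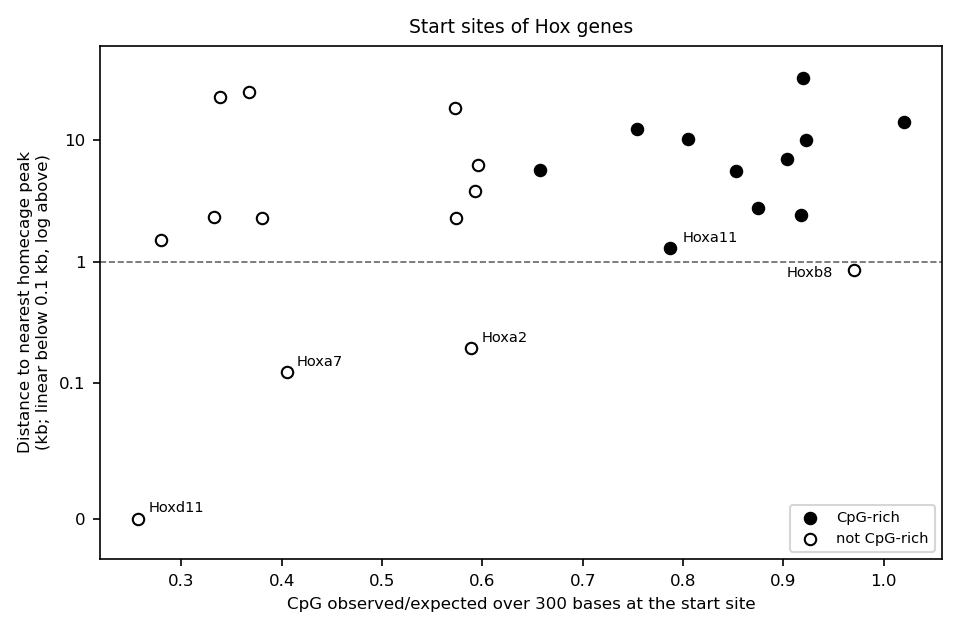
CpG observed/expected ratio of the 24 Hox start sites (x axis) and distance from the start site to the nearest homecage peak in kb (y axis, linear below 0.1 kb and logarithmic above). Filled points are CpG-rich and the dashed line is at 1 kb; all 11 filled points lie above it, from 1287 bp at Hoxa11 upward.

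The clusters also hold 6 miRNA genes, of which the miR-196 and miR-10 families are known to act on Hox transcripts. All 3 miR-196 genes had a homecage peak within 1 kb, and none of Mir10a, Mir10b and Mir615 had one. Over all 1228 miRNA genes of the table, 32.3% had a homecage peak and 3.83% a learning peak in the gene or within 1 kb. The nearest homecage peak lay 191 bp from Mir196a-2 (287 bp wide, chr15:102973625-102973911), 734 bp from Mir196b (463 bp, chr6:52228885-52229347) and 786 bp from Mir196a-1 (387 bp, chr11:96263992-96264378). It lay 4367 bp from Mir10a, 8675 bp from Mir615 and 18312 bp from Mir10b. None of the 6 had a learning peak within 1 kb, the nearest being 20350 bp from Mir196a-1. The mature 5p sequences from RefSeq (GRCm38.p6) are shown to tell the 2 families apart by their seed, bases 2 to 8, in capitals. Mir196a-1 and Mir196a-2 give the same miR-196a.
miR-196a-5p: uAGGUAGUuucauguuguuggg
miR-196b-5p: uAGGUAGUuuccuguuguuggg
miR-10a-5p: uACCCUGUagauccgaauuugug
miR-10b-5p: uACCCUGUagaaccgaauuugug

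Peaks were also counted in genes that work with, induce or silence Hox genes, and in transcription factors. The shares below count a peak in the gene or within 1 kb and stand beside 26.9% (learning) and 81.7% (homecage) of all protein-coding genes. Many of these genes are longer than Hox genes, so counts within the range of Hox gene lengths are given too, where all protein-coding genes had 21.2% and 82.6%. That range is wide, and lengths inside it are not matched to the Hox genes. Protein-coding genes up to 4000 bp had 7.64% and 48.9%, and those over 10000 bp in the range 25% and 91.2%. TALE cofactors, homeodomain proteins that bind DNA together with Hox proteins, had a learning peak at 5 of 9 genes (55.6%) and a homecage peak at all 9, with a median gene length of 139224 bp. Only 4 of them are in the Hox length range, 2 with a learning and 4 with a homecage peak. The widest peaks of the list were at Pbx2 (391 bp, learning) and Meis3 (1690 bp, homecage). Polycomb subunits had a learning peak at 16 of 30 genes (53.3%) and a homecage peak at 28 (93.3%). In the Hox length range the counts were 7 and 17 of 19. The widest learning peaks were at Aebp2 (696 bp), an accessory subunit of Polycomb repressive complex 2, and Kdm2b (685 bp), which recruits Polycomb to CpG islands. In the homecage list the widest were at Cbx6 (2147 bp) and Rybp (2114 bp), both of Polycomb repressive complex 1. Genes of retinoic acid signalling, the embryonic inducer of Hox genes, had a learning peak at 6 of 18 (33.3%) and a homecage peak at 15 (83.3%), near the shares of all protein-coding genes. In the Hox length range these were 3 and 9 of 12. Of its receptors, Rarg had a learning peak of 810 bp and Rarb one of 490 bp, and the widest homecage peaks were at Stra6 (1444 bp), which takes up retinol, and Rarb (1391 bp).

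Forebrain transcription factors had a learning peak at 13 of 22 genes (59.1%, 36.4 to 79.3%) and a homecage peak at 21 (95.5%). The widest were at Neurod2 (878 bp) and Nr2f1 (707 bp) in the learning list, and at Zbtb20 (2679 bp), a factor of hippocampal identity, in the homecage list. Among 7 factors that mark the forebrain and hippocampus, 4 had a learning peak, with Lhx2, Neurod2 and Zbtb20 among them, and all 7 had a homecage peak. A peak list holds no expression, so this is no check of the tissue. Transcription factors of other tissues, such as Gata4, Hnf4a and Pax3, had a learning peak at 0 of 40 genes (0 to 8.81%) and a homecage peak at 23 (57.5%, 40.9 to 73.0%), the widest at Hnf4a (891 bp) and Gata4 (868 bp). The ParaHox genes, relatives of the Hox genes outside the clusters, had them at 0 of 6 and 4 of 6, the widest at Cdx1 (525 bp). The Hox genes were thus not alone in lacking learning peaks. In the range of Hox gene lengths, 8 of 14 forebrain factors and 0 of 32 factors of other tissues had a learning peak, and 13 and 15 had a homecage peak.

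**Figure D5:**
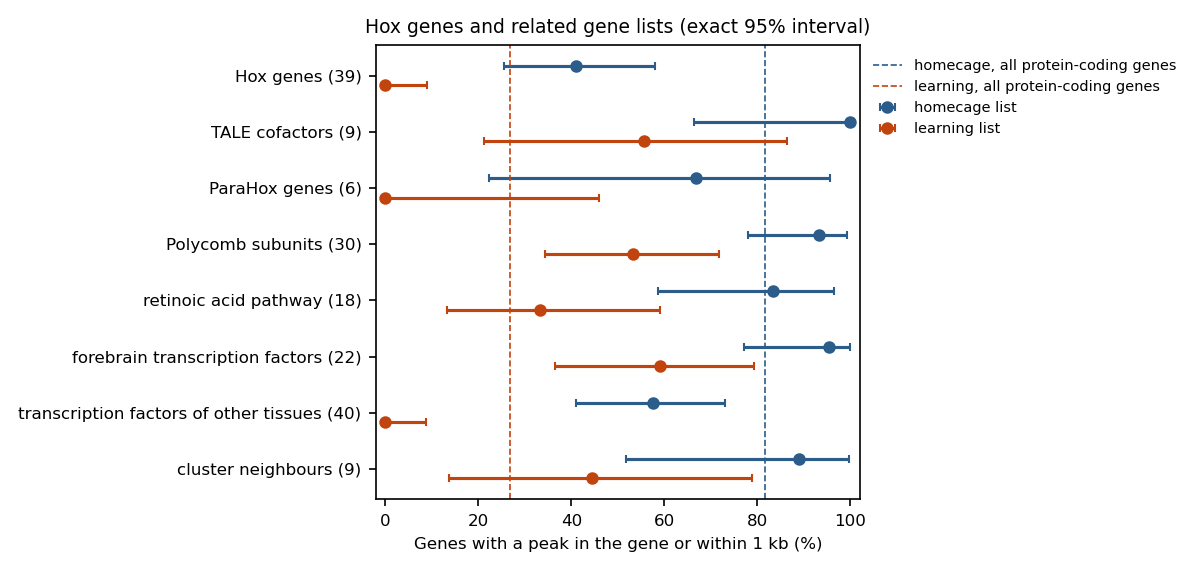
Share of genes with a peak in the gene or within 1 kb for the Hox genes and 7 related lists (number of genes in parentheses), in the homecage (blue) and learning (red) list, with exact 95% intervals; dashed lines are the shares over all protein-coding genes, 81.7% and 26.9%. The Hox genes, the ParaHox genes and the transcription factors of other tissues are at 0% in the learning list.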

How the data were processed

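The authors' deposited files are 2 lists of broad peaks, 1 per pan-Kcr library, with 4 columns (chromosome, start, end, peak name). Peak names state a p-value threshold of 0.01. Per the submitters' processing notes, Trimmomatic, BWA, MACS2 and the mm10 build were used, and whether an input served as control is not given in the sources used here. Per the labels, about 20 mg of tissue was fixed in 1% formaldehyde and sonicated to 200 to 500 bp. The 8 single-nucleus and 2 input libraries were not analysed here.

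Groups came from sample titles. Peaks on chromosomes 1 to 19, X and Y were overlapped (at least 1 bp) with RefSeq genes of GRCm38.p6, which corresponds to mm10. Scripts ran in Python 3.11.15 (pandas 2.3.3 and numpy 2.4.6 for overlaps, scipy 1.17.1 for intervals, matplotlib 3.10.9 for plots). The overlap function, tested on simulated peaks planted in 200 of 21887 genes, found all 200. The members and gene lists were chosen with earlier results of these data known, and the CpG classes, length bands, motifs and miRNA genes after the peak lists were seen. Prac1 did not match the gene table. Values of some single genes are not reported here, though counts include them. The rule for named genes took the Hox genes, the 3 widest homecage peaks per cluster, all learning peaks in or nearest to a cluster, and genes with the widest peaks of the other lists. Positions are 1-based.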

Additional observations from a re-analysis of the deposited data

How the results depend on the processing

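No paired analysis was possible because learning and homecage have a single pan-Kcr library each, and none could be left out. Among 68 recomputed values, 49 stayed inside the counting interval (for counts and covered shares, within 1.5 times) and 19 moved beyond it. Of the 49, 26 are learning values that stayed 0. They could not change, since the alternatives only narrow the count or reach less far than the nearest learning peak, so they say nothing about stability. With a minimum peak width of 500 bp the homecage count fell to 4 genes (all protein-coding genes 54.8%), and to 1 at gene ends (all protein-coding genes 27.9%). The homecage densities became 1.90, 1.15, 1.73 and 0 per 100 kb in Hoxa, Hoxb, Hoxc and Hoxd, and the covered shares 1.05%, 0.834%, 0.743% and 0%. The 1 learning peak of Hoxb was lost with that minimum, and without Hoxb13 and the stretch that holds it, an alternative whose outcome was thus known; both gave 0 per 100 kb and 0% covered. The 16002 widest homecage peaks, as many as the learning list has, included 0 at Hox genes (all protein-coding genes 23.1%) and 0 at their ends (all protein-coding genes 9.47%). With a 3 kb window, the homecage count in the gene or window rose from 16 to 24 of 39 (all protein-coding genes 87.1%). This rise lies at the limit of 1.5 times and is among the 49. With 3 kb windows, homecage peaks lay at an end of 23 of 39 Hox genes, against 81.3% of all protein-coding genes. They lay at the start site of 10 of 22 Hox genes, against 70.1% of protein-coding genes with a placed start site. Hox genes that overlap no other Hox gene gave 41.4% in the homecage list. Without a GC limit, 1 CpG-rich Hox start site had a homecage peak. The settings without Hoxb13, without overlapping Hox genes and with other CpG limits were chosen after the data were seen. Without strengths or read numbers, weak peaks could not be set apart, and a gene without a peak may carry the mark below the calling threshold.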

Other observations

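Long noncoding RNA genes lie between and across the Hox genes, and several act on Hox expression. Of 25 in the clusters, 7 had a homecage peak in the gene or within 1 kb, against 75.5% of all 12727 lncRNA genes, and 0 had a learning peak, against 12.4%. Gm30528, which overlaps Hoxc4 and runs beyond the cluster, had 6 homecage peaks, and Hoxa11os, the antisense transcript of Hoxa11, had 2. Haglr, between Hoxd3 and Hoxd1, had 1. Hotair in the Hoxc cluster and Hotairm1 in the Hoxa cluster had none. The comparison takes no account of gene length.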
